A study of Rattus norvegicus with 18 samples.

Results

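The adult rats of a fracture healing series were examined at 6 time points, with the callus phase set against the other times. Of the 18 arrays of the series, 6 came from adult rats, and the other 12 came from young rats (6 weeks at fracture) and older rats (52 weeks) at the same 6 times. The callus phase held the 3 arrays of 3 days, 1 week and 2 weeks after fracture, and the other times held the 3 arrays of no fracture, 4 weeks and 6 weeks. Arrays were assigned to a phase by their sample labels. The phases, the gene lists and the tests were chosen with earlier results of these data known. The adult rats were intact Sprague-Dawley females, 26 weeks old when a rod was set in the left femur and its shaft was broken by a closed transverse fracture. The no fracture rats were 26 weeks old at collection and served as sham controls of the same strain and sex. RNA of 2 rats was pooled on each Affymetrix rat expression array, on which a gene is read by 1 or several probe sets of short probes. The tissue was the middle of the femoral shaft with callus, cortical bone and marrow. Signals are linear intensities in arbitrary units, and log2 differences were taken after signals below 20 were set to 20. With 1 array per time point, no time point had a replicate of its own, so the arrays of different times stand as the 3 samples of each phase and the spread within a phase contains the course of healing.

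A long bone fracture heals through a blood clot and inflammation, after which periosteal cells form fibrous tissue, cartilage and woven bone around the gap. This callus cartilage is then mineralised and resorbed, and osteoclasts and osteoblasts remodel the new bone towards its old shape. The marrow of the shaft, which makes red cells, granulocytes and lymphocytes, lies inside the same segment and is read together with the bone, and muscle fibres lie against its surface. In such bulk tissue, fewer cells of a type and less RNA per cell cannot be told apart.

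Markers of bone, marrow and muscle were present in the no fracture array. The signal of Bglap (osteocalcin, a bone matrix protein of osteoblasts) was 11652 there, that of Hbb-b1 (a beta globin) was 40735 and that of Ckm (the creatine kinase of muscle) was 58392. Osteoclast genes were at 1014 for Ctsk and 1185 for Acp5, while Col2a1, the main collagen of cartilage, was at 117. Across probe sets, the 3 callus phase arrays correlated with each other at r = 0.946 to 0.968, and the 4 and 6 week arrays at r = 0.971. The no fracture array stood apart, with r = 0.848 to 0.92 against each of the 5 others. The ratio of the 3' to the 5' control probe set of Gapdh ran from 1.16 without fracture to 1.83 at 6 weeks, with 1.28 to 1.56 in the callus phase. The same ratio of actin was highest at 3 days and 1 week, but the phases overlapped, with the 6 week value above that of 2 weeks. It was 2.08, 2.12 and 1.61 at the callus phase times in order, against 1.2 without fracture and 1.48 and 1.72 at 4 and 6 weeks, and its part in the differences between phases was not tested.

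In adult rats the genes called lower in the callus phase included 6 of 10 red cell genes, 2 of 11 granulocyte genes and 1 of 13 mast cell genes, and those called higher included Cdkn1a, Fzd2 and Cyp51. Of 8740 probe sets, 25 were higher in the callus phase (0.286%) and 51 were lower (0.584%) by limma with Benjamini-Hochberg adjustment at 0.05. At an unadjusted p under 0.05, 629 were higher (7.20%) and 1318 were lower (15.1%). In all 76 called probe sets the 3 callus phase signals lay outside the range of the other 3. The call favours this, since the spread within each phase is its error. Over all probe sets, 913 (10.4%) had all 3 callus phase signals above the other 3 and 1728 (19.8%) had all 3 below, and with a mean difference of at least 2-fold these counts were 442 and 671. The median difference of all probe sets was -0.13 on the log2 scale. With each array scaled to its own median the counts were 30 higher and 28 lower, and after quantile normalization 41 higher and 38 lower. These calls depended on single arrays. Leaving out the 3 day, 1 week or 2 week array left 11, 5 or 9 higher and 11, 1 or 7 lower calls, and leaving out the no fracture, 4 week or 6 week array left 11, 5 or 8 higher and 65, 33 or 60 lower calls. An exact permutation test of 3 against 3 arrays cannot give a p below 0.1.

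Genes of red cell formation had lower signals in the callus phase. All 10 measured genes of the list had lower signals at 3 days, 1 week and 2 weeks than at any other time, against 19.8% of all probe sets, and 6 of the 10 were called lower against 0.584% of all. The called genes were Slc4a1, Alas2, Rhd, Epor, Rhag and Epb41. The median difference of the list was -2.65 on the log2 scale. The promoters of Alas2 and Rhd are shown because both genes were called and both windows hold a GATAA match, the core of the motif bound by GATA factors such as GATA1, which directs red cell maturation. Capitals mark GATAA or its reverse TTATC, and the sequences of 250 bases before to 50 bases after the gene start are from RefSeq (build GRCr8). Alas2 lies at chrX:22895200-22895499 on the plus strand, and Rhd at chr5:152370950-152371249 on the plus strand.
Alas2: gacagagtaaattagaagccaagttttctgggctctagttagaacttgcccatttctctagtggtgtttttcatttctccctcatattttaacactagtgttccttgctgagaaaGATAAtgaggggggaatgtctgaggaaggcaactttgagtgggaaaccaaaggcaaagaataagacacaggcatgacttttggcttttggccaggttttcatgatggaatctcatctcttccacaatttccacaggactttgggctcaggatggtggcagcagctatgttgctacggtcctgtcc
Rhd: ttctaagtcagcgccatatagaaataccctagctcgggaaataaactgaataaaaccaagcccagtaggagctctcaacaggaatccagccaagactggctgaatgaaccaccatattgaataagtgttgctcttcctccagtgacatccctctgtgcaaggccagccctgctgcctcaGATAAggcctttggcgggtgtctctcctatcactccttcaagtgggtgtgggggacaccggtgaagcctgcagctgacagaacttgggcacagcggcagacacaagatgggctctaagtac

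Promoter windows were found for 8 of the 10 erythroid genes, and GATAA on either strand stood in 4 of the 8. Of all 33469 promoters, 26.5% held it. The match is a description of the letters in these windows, and binding was not measured.

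Slc4a1, which exchanges anions across the membrane of red cells, had the largest difference of the list. Its signals were 3517 without fracture, 168, 109 and 182 at 3 days, 1 week and 2 weeks, and 2098 and 2389 at 4 and 6 weeks. The callus phase was 17.5-fold lower (log2 difference -4.13, SE 0.30, adjusted p = 0.0231). A further 2 probe sets of Slc4a1 had log2 differences of -1.11 and -1.10 and were not called. Alas2, the first enzyme of heme synthesis in red cell precursors, was at 14099 without fracture, 541, 546 and 645 at 3 days, 1 week and 2 weeks, and 4469.5 and 7235 at 4 and 6 weeks. It fell 13.4-fold (log2 difference -3.74, SE 0.44, adjusted p = 0.0483). The callus phase values of both genes lay close together, and the no fracture value was the highest of the 6.

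Rhd, the carrier of the Rhesus antigen, fell 6.47-fold (log2 difference -2.69, SE 0.27, adjusted p = 0.0356), with 259, 240.3 and 374 in the callus phase against 2426, 1459 and 1779 at the other times. Rhag, its partner in the Rhesus complex, showed 89.3, 109 and 95.8 in the callus phase against 363, 559.7 and 404 at the other times (log2 difference -2.15). Epor, the erythropoietin receptor, was at 103 without fracture, 19.7, 18.6 and 27.4 at 3 days, 1 week and 2 weeks, and 146 and 95.4 at 4 and 6 weeks, so that 2 of its callus phase signals lay below the floor of 20. Epb41, which anchors the red cell skeleton, fell 2.97-fold (log2 difference -1.57, SE 0.19, adjusted p = 0.0499), and its second probe set was called as well. None of these genes showed overlap between the phases. Among the members that were not called, Gata1 was at 42.5, 68.5 and 78.3 in the callus phase against 398, 221 and 363 at the other times (adjusted p = 0.0659), and Hbb-b1 was at 6578, 1504 and 6671 in the callus phase against 40735, 21015 and 23264 at the other times (adjusted p = 0.136). The globins had their lowest signal at 1 week, whereas Gata1, Alas2 and Rhag were lowest at 3 days. Without the 3 day, 1 week or 2 week array none of the erythroid genes was called, although the median difference of the list stayed between -2.36 and -2.98 and 8 to 10 of the 10 had an unadjusted p under 0.05 in each of the 6 fits with an array left out. Without the no fracture, 4 week or 6 week array 2, 1 or 1 of the genes were called. With arrays scaled to their medians 3 were called, and Alas2 (adjusted p = 0.0639), Rhd (0.0570) and Epb41 (0.0601) were not. With the spread taken from all 18 arrays Slc4a1 and Alas2 alone were called.

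Erythroid signals were higher again at 4 and 6 weeks. The list median was 11.51 without fracture on the log2 scale, 7.72, 8.02 and 8.18 in the callus phase, and 10.77 and 11.01 at 4 and 6 weeks. At 6 weeks each of the 10 genes was within 2-fold of no fracture in adult rats, while at 4 weeks Alas2 was still 3.15-fold lower. The limma fit over adult and older rats called 1 of the 10 lower at 6 weeks than without fracture (7.27% of all probe sets). This was Alas2, with a log2 change of -1.50 (SE 0.30, adjusted p = 0.0265), and 3 of the 10 had an unadjusted p under 0.05. Young and older rats offer a view of the same genes at the same times. At 2 weeks all 10 genes were at least 2-fold higher in the young than in the adult array, against 7.24% of all probe sets, while 0 of 10 were so in the older array, against 3.92%. Slc4a1, for example, was at 182 in adult rats, 3204 in young rats and 235 in older rats at 2 weeks. These are single arrays, so this difference was not tested. Over the whole callus phase the median difference of the list was -2.02 in young and -2.44 in older rats, and limma called 0 of the 10 genes different between adult rats and either age, with 0 at an unadjusted p under 0.05.

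**Figure D1:**
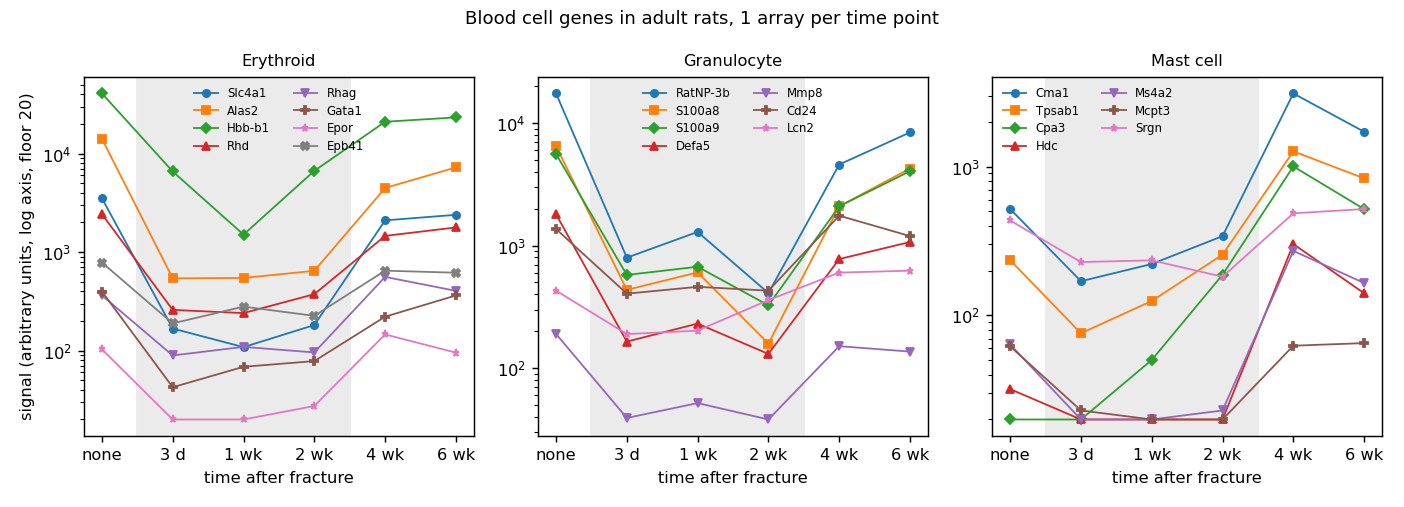
Signals of erythroid, granulocyte and mast cell genes in adult rats, with time after fracture on the horizontal axis (none, no fracture) and signal in arbitrary units on a log axis with a floor of 20. Each point is 1 array and the grey band is the callus phase. Erythroid and most granulocyte genes were low at all 3 callus phase times, and most mast cell genes had their highest signal at 4 weeks.

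Of 11 measured granulocyte genes, 7 were lower at all 3 callus phase times than at the other times (19.8% of all probe sets), and 2 were called lower (0.584% of all), Mmp8 and Cd24. Mmp8, the collagenase of neutrophil granules and also a member of the matrix protease list, was at 189.6 without fracture, 39, 51.6 and 37.9 at 3 days, 1 week and 2 weeks, and 151 and 136 at 4 and 6 weeks (log2 difference -1.89, SE 0.23, adjusted p = 0.0499). Its call was lost with arrays scaled to their medians (adjusted p = 0.0588) and with the spread taken from all 18 arrays (adjusted p = 0.0765). Without the 1 week array no granulocyte or mast cell gene was called. Cd24, a surface protein of immature granulocytes and B cells, was at 404, 459.9 and 428 in the callus phase against 1365, 1754 and 1195 at the other times and fell 3.30-fold (log2 difference -1.72, SE 0.16, adjusted p = 0.0356). With the spread taken from all 18 arrays Cd24 was not called (adjusted p = 0.0556). The neutrophil proteins S100a8 and S100a9 had larger differences without passing the test, of -3.48 (adjusted p = 0.0934) and -2.86 (adjusted p = 0.0751). S100a8 was at 6486 without fracture, 435, 603 and 158 at 3 days, 1 week and 2 weeks, and 2094 and 4261 at 4 and 6 weeks. The list's lowest median was at 2 weeks. At 6 weeks 3 of the 11 were at least 2-fold lower than without fracture in adult rats, against 13.2% of all probe sets. The fit over adult and older rats called 3 lower (7.27% of all), Prg2, Cebpe and Itgam. Prg2, a granule protein of eosinophils, was at 710 without fracture, 47.7, 30.2 and 23.5 at 3 days, 1 week and 2 weeks, and 43.6 and 229.5 at 4 and 6 weeks. Lyz2, a lysozyme shared with macrophages, was the 1 member with all callus phase signals above the others, at 8871, 6841 and 7979.7 in the callus phase against 2239, 4314 and 6251 at the other times.

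The mast cell list differed in that 4 weeks, not no fracture, was usually its highest time. Of 13 measured genes, 8 were lower at all 3 callus phase times (19.8% of all probe sets) and 1 was called (0.584% of all), Mcpt3, a mast cell protease, at 23, 17.5 and 14.7 in the callus phase against 62, 62.6 and 65.2 at the other times (log2 difference -1.59, SE 0.07, adjusted p = 0.00515). Its mean signal was low, and 2 of the callus phase signals lay below the floor. With the spread taken from all 18 arrays Mcpt3 was not called (adjusted p = 0.0860), whereas Ms4a2 was (adjusted p = 0.0454). In 9 of the 13 both late arrays exceeded all 4 others, against 9.18% of all probe sets, and in 5 they did so by at least 2-fold, against 0.378%. Cma1, a mast cell chymase, was at 519.5 without fracture, 169.8, 222 and 341 at 3 days, 1 week and 2 weeks, and 3101 and 1713 at 4 and 6 weeks. Hdc, which makes histamine, was at 32 without fracture, 15.7, 14.4 and 8.0 at 3 days, 1 week and 2 weeks, and 302 and 141 at 4 and 6 weeks. Cpa3, the carboxypeptidase of mast cell granules, was at 17.7 without fracture, 14.7, 50.2 and 188 at 3 days, 1 week and 2 weeks, and 1002 and 518 at 4 and 6 weeks, and its rise had begun by 2 weeks. For Cpa3 the change from no fracture to 6 weeks in the fit of adult and older rats was 3.70 (SE 0.63, adjusted p = 0.0171), a value that depends on the floor since the adult no fracture signal lay below it.

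Over all genes 33 probe sets had both late arrays at least 2-fold above the 4 others, and 26 of them have 1 gene symbol. They were selected after their values were seen and are given as values. They included the mast cell genes Hdc, Cma1, Tpsab1, Cpa3 and Ms4a2. Ighvl1, an immunoglobulin heavy chain gene, was at 135 without fracture, 39.5, 34.1 and 270.4 at 3 days, 1 week and 2 weeks, and 3117 and 2693 at 4 and 6 weeks, and Iglc1, a lambda light chain constant region, was at 61, 20.2 and 35.7 in the callus phase against 36.1, 565 and 397 at the other times. Cd79b, a part of the B cell receptor, was at 182 without fracture, 58.3, 59.4 and 89 at 3 days, 1 week and 2 weeks, and 876 and 436 at 4 and 6 weeks. Cfd, the adipocyte-secreted complement factor D, was at 729, 579 and 807 in the callus phase against 1124, 2865 and 3060.2 at the other times.

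Cd72, Atp2a3, RT1-S3, St8sia3 and Rgs14 were also called lower. Cd72, a B cell coreceptor, was at 697 without fracture, 96.7, 114 and 112 at 3 days, 1 week and 2 weeks, and 1947 and 1074 at 4 and 6 weeks (log2 difference -3.40, SE 0.40, adjusted p = 0.0483). Atp2a3, a calcium pump abundant in blood cells, was at 295, 402 and 351 in the callus phase against 1873, 2826 and 1722 at the other times and fell 6.03-fold. RT1-S3, a class Ib histocompatibility gene, was at 362, 408 and 347 in the callus phase against 832, 823 and 811 at the other times (log2 difference -1.15, SE 0.09, adjusted p = 0.0269). Its call was lost with the spread taken from all 18 arrays (adjusted p = 0.105). The smallest named falls were those of St8sia3, a sialyltransferase, with a log2 difference of -0.92, and Rgs14, a regulator of G protein signalling, with -0.71. Both lost the call with another floor or offset, either scaling, a minimum mean signal or all 18 arrays, for example with medians as the scale (adjusted p = 0.0789 for St8sia3 and 0.128 for Rgs14). Alox15, a lipoxygenase, had all 3 callus phase signals below 20 in its called probe set, with 2016, 737 and 927 at the other times, which makes it at least 55.6-fold lower. A brighter probe set of Alox15 had a log2 difference of -2.71 (adjusted p = 0.0913).

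Of the 51 probe sets called lower, 22 had a mean signal of at least 200, and in 13 all 3 callus phase signals were at or below the floor. Skeletal muscle genes were not among them, with 0 of 38 measured members called by limma. Of the 38, 8 were lower at an unadjusted p under 0.05, against 15.1% of all probe sets.

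Probe sets called higher in the callus phase were fewer in the main fit, and their signals were mostly low. They were not fewer with arrays scaled to their medians (30 higher, 28 lower) or after quantile normalization (41 higher, 38 lower). Of 25, 8 had a mean signal of at least 200, and in 7 all 3 other signals were at the floor. Cdkn1a, which encodes the cell cycle inhibitor p21, was at 107 without fracture, 473, 875 and 682 at 3 days, 1 week and 2 weeks, and 99 and 87.4 at 4 and 6 weeks. It was 6.72-fold higher in the callus phase (log2 difference 2.75, SE 0.26, adjusted p = 0.0356), with its highest signal at 1 week. It was the 1 called member of 31 measured cell cycle genes (0.286% of all probe sets were called higher), whose median difference was -0.04. Its second probe set had a log2 difference of 3.18 (adjusted p = 0.0557). With an array left out, 3 to 7 of the 25 calls of all genes remained.

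Cyp51, an enzyme of cholesterol synthesis, was highest at 3 days, at 263 without fracture, 1076, 794 and 689 at 3 days, 1 week and 2 weeks, and 245 and 238 at 4 and 6 weeks (log2 difference 1.75, SE 0.19, adjusted p = 0.0409). The other 4 probe sets of Cyp51 were dimmer and not called, and 1 of them had the opposite sign. Fzd2, a Wnt receptor, was at 461, 516 and 382 in the callus phase against 155, 172 and 173 at the other times and rose 2.70-fold (log2 difference 1.43, SE 0.16, adjusted p = 0.0424). The call of Fzd2 was lost with the spread taken from all 18 arrays (adjusted p = 0.0549). Itgb1, the integrin chain shared by collagen and fibronectin receptors, rose 1.93-fold from a high level, at 2328 without fracture, 4648, 5153 and 4653 at 3 days, 1 week and 2 weeks, and 2619 and 2532 at 4 and 6 weeks (log2 difference 0.95, SE 0.10, adjusted p = 0.0365). The call of Itgb1 was lost with a floor of 1 (adjusted p = 0.0639), an offset of 50, quantile normalization, a minimum mean signal of 200 or all 18 arrays, and was kept with arrays scaled to their medians. At 6 weeks Cdkn1a, Cyp51, Fzd2 and Itgb1 were each within 2-fold of their no fracture signal. The call itself favours such a return, because it pools no fracture with 4 and 6 weeks.

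Aldoc, an aldolase and the 1 called member of 16 measured glycolysis genes, was at 289.7, 212 and 211 in the callus phase against 47.2, 43.5 and 54.8 at the other times (log2 difference 2.28, SE 0.22, adjusted p = 0.0356). Of all probe sets 0.286% were called higher. Several further called probe sets had low signals outside the callus phase. The called probe set of Slc7a1, a carrier of arginine and lysine, was at 148, 169.6 and 139 in the callus phase against 15.1, 16.9 and 13.6 at the other times (adjusted p = 0.00446). All its signals outside the callus phase were below the floor, so it was at least 7.58-fold higher. Its brighter probe set was at 234, 188 and 108 in the callus phase against 13.1, 42.8 and 127 at the other times (adjusted p = 0.250).

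The called probe set of Stx5, a SNARE protein of transport to the Golgi, was at 133, 134 and 111 in the callus phase against 9.90, 20 and 10 at the other times, which makes it at least 6.27-fold higher (adjusted p = 0.00446), whereas its brighter probe set was at 1226, 1126 and 1205 in the callus phase against 933, 995 and 1325 at the other times (adjusted p = 0.594). The probe sets of Stx5 disagree. Ykt6, another SNARE protein, was at 192, 160 and 111 in the callus phase against 13.5, 25.1 and 11.5 at the other times (adjusted p = 0.0350), with 2 of its 3 signals outside the callus phase below the floor. Pde4b, a phosphodiesterase that breaks down cyclic AMP, was at 197, 211 and 176 in the callus phase against 11, 31.2 and 18 at the other times in its called probe set, and its brighter probe set, at 1232, 1204 and 786 in the callus phase against 471, 747 and 918 at the other times, had overlapping phases. Rara, a retinoic acid receptor, was at 211, 245 and 212 in the callus phase against 51.9, 45.8 and 33.3 at the other times in its called probe set, and its brighter one also overlapped (adjusted p = 0.433). Tmem214, a membrane protein, and Glg1, a protein of the Golgi, were each called on a dimmer probe set, and the brighter probe sets had log2 differences of 0.46 and 0.78 and were not called. These last 7 genes were named after their values were seen.

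**Figure D2:**
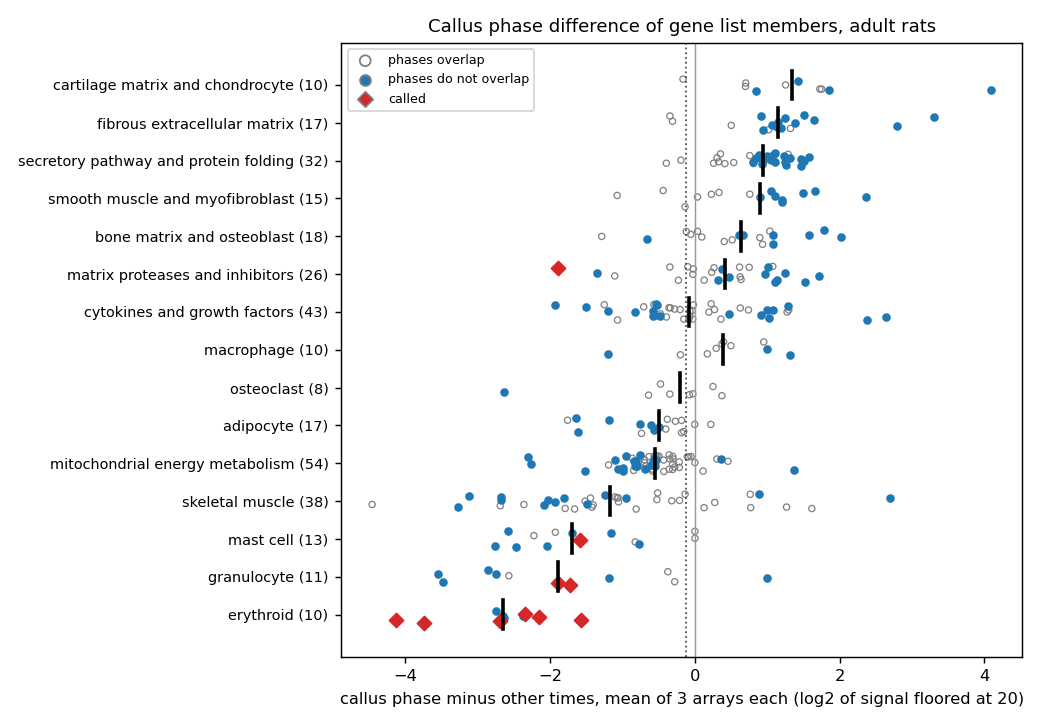
Callus phase difference of the members of 15 gene lists in adult rats, with the list and its number of measured genes on the vertical axis and the log2 difference of the means of 3 arrays each on the horizontal axis. Each point is 1 gene, bars are list medians and the dotted line is the median of all probe sets. Called genes (diamonds) lie in the erythroid, granulocyte, mast cell and matrix protease lists, and the medians of the fibrous matrix and secretory lists lie to the right of 0 with 0 called.

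Genes of the fibrous matrix had higher signals in the callus phase, and limma called none of them. Of 26 gene lists, with 505 of 746 listed entries measured, called members were found in 6. In the fibrous matrix list, 12 of 17 genes had all 3 callus phase signals above the other 3, against 10.4% of all probe sets, with a median difference of 1.15. The count called was 0, and 9 were higher at an unadjusted p under 0.05, against 7.20% of all probe sets. Lox, which crosslinks collagen, was at 338 without fracture, 10525, 11149.5 and 8719 at 3 days, 1 week and 2 weeks, and 1936 and 1628 at 4 and 6 weeks (log2 difference 3.30, SE 0.73, adjusted p = 0.110). Vcan, a large proteoglycan of provisional matrix, was at 114 without fracture, 1278, 1732 and 919 at 3 days, 1 week and 2 weeks, and 228 and 233 at 4 and 6 weeks (log2 difference 2.80, SE 0.39, adjusted p = 0.0601). Neither gene showed overlap between the phases, and the 4 and 6 week signals of both lay between those of no fracture and the callus phase.

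Genes that fold and export secreted proteins also had higher signals. In 20 of 32 genes of the secretory pathway list the callus phase signals were all above the others (10.4% of all probe sets), 0 had all below, and the median difference was 0.94. limma called 0, with 16 higher at an unadjusted p under 0.05, against 7.20% of all probe sets. Serpinh1, the collagen chaperone, was at 1251 without fracture, 14645, 12056 and 9447 at 3 days, 1 week and 2 weeks, and 7676 and 6602 at 4 and 6 weeks. Ppib, a proline isomerase of collagen folding, was at 6141, 5445 and 5098 in the callus phase against 1093, 2406 and 2813 at the other times (adjusted p = 0.137). The list median was highest at 3 days. In the smooth muscle and myofibroblast list, 8 of 15 were above in all 3 arrays (10.4% of all probe sets). Among them was Tagln, an actin-binding protein, at 1612, 2304 and 2073 in the callus phase against 698, 571 and 861 at the other times. In this list limma called 0, with 8 higher at an unadjusted p under 0.05 (7.20% of all).

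Cartilage genes differed among themselves in the time of their highest signal. Of 10 measured, 4 were above at all 3 callus phase times (10.4% of all probe sets) and 6 had a mean difference of at least 2-fold. Among these 10 genes limma called 0, with 2 higher at an unadjusted p under 0.05 (7.20% of all). Acan, the core protein of aggrecan, was already at 1653 at 3 days, from 30.7 without fracture, and reached 2302 at 1 week and 1618 at 2 weeks, before 128 and 312 at 4 and 6 weeks. Col2a1 went from 709 at 3 days to 5751 at 1 week and 15934 at 2 weeks. Col10a1, the collagen of hypertrophic cartilage, was below the floor at 3 days (11.9) and then at 849.9 and 6490.4. In the order of time, Acan was highest at 1 week and Col2a1 and Col10a1 at 2 weeks. The callus phase difference of Col10a1 was 1.25 on the log2 scale with an SE of 2.55, which contains this spread within the phase.

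Of 18 bone matrix and osteoblast genes 7 were above at all 3 callus phase times (10.4% of all probe sets) and 1 below (19.8%). Among these 18 genes limma called 0, with 5 higher (7.20% of all) and 1 lower (15.1%) at an unadjusted p under 0.05. Ibsp, the bone sialoprotein of new bone, was at 367 without fracture, 5060.4, 5318 and 3826 at 3 days, 1 week and 2 weeks, and 1731 and 2459.7 at 4 and 6 weeks. Bglap, a product of mature osteoblasts, was at 11652 without fracture, 4217, 5681 and 12507 at 3 days, 1 week and 2 weeks, and 16362 and 22887 at 4 and 6 weeks, so its phases overlapped and its lowest signals were at 3 days and 1 week. Of 26 matrix proteases and inhibitors, 10 were above at all 3 times and 2 below, against the same shares, and the 2 were Mmp8 and Mmp7, of which Mmp8 alone was called. Mmp14, a membrane collagenase, was at 1222 without fracture, 4726, 7112 and 7920 at 3 days, 1 week and 2 weeks, and 2896 and 2138 at 4 and 6 weeks.

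Muscle and mitochondrial genes were highest without fracture. Of 38 skeletal muscle genes, 29 had their highest signal in the no fracture array, beside 37.7% of the probe sets that spanned at least 2-fold, and the list median was 12.91 there, 8.80, 10.65 and 11.90 in the callus phase, and 11.68 and 11.43 later. Myl3, a light chain of slow myosin, was at 24289 without fracture, 363, 1637 and 5586 at 3 days, 1 week and 2 weeks, and 10189 and 8754 at 4 and 6 weeks. Not all members followed this order. Myog, which drives muscle precursors to differentiate, was at 209.5 without fracture, 579.8, 1162 and 572 at 3 days, 1 week and 2 weeks, and 126 and 53.5 at 4 and 6 weeks, and Myh3, embryonic myosin, reached 15154 at 1 week from 1981 at 3 days. Of 54 mitochondrial genes 48 were highest without fracture, beside the same 37.7%, and 19 were below at all 3 callus phase times (19.8% of all probe sets). limma called 0 of the 54, with 7 lower at an unadjusted p under 0.05, against 15.1% of all probe sets. The mitochondrial list and the muscle list were both highest in the same single array, and the part of muscle RNA in the mitochondrial values was not tested.

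**Figure D3:**
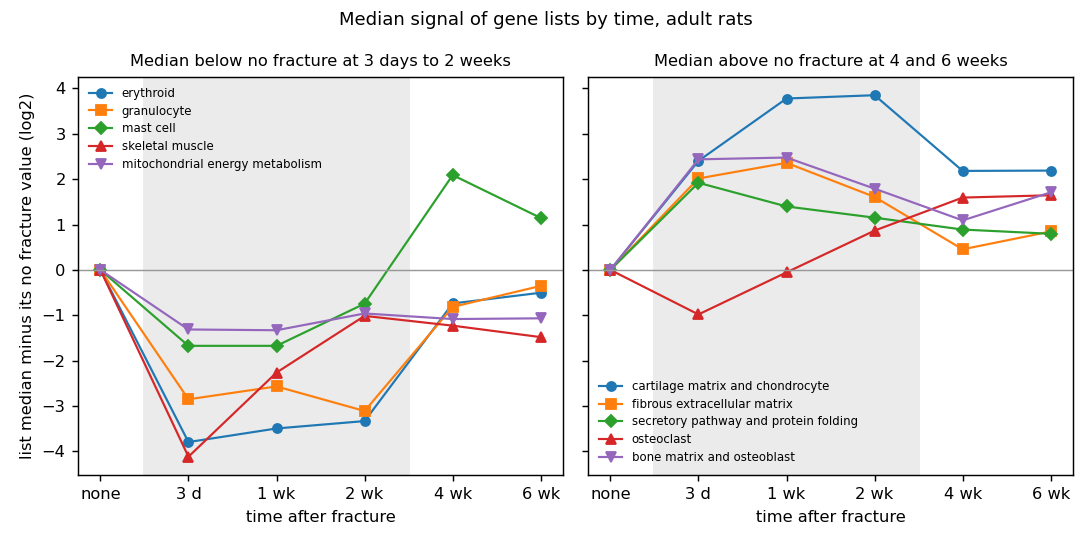
Median log2 signal of 10 gene lists minus the value in the no fracture array, against time after fracture in adult rats (grey band, callus phase). The erythroid and granulocyte medians lay at least 2 log2 units below no fracture throughout the callus phase and within 1 unit at 4 and 6 weeks. At 6 weeks the muscle and mitochondrial medians were still more than 1 unit lower. The cartilage, osteoclast and bone matrix medians were then more than 1 unit higher.

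The remaining lists held no call by limma. Of all probe sets 10.4% were above and 19.8% below at all 3 callus phase times. The counts above and below at all 3 callus phase times were 8 and 9 of 43 cytokines and growth factors, 1 and 4 of 16 chemokines, 0 and 1 of 3 B lymphocyte genes, 1 and 2 of 15 T lymphocyte genes, 2 and 1 of 10 macrophage genes, and 0 and 2 of 8 platelet genes. They were 0 and 7 of 17 adipocyte genes, 3 and 1 of 12 endothelial genes, 1 and 4 of 15 Schwann cell genes, 1 and 6 of 22 neuron genes, 5 and 3 of 25 immediate early genes, 1 and 3 of 20 interferon-induced genes, and 0 and 1 of 8 osteoclast genes. Between 0 and 6 members of each list were higher and between 0 and 7 lower at an unadjusted p under 0.05. The shares of all probe sets were 7.20% higher and 15.1% lower.

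The array with the highest or the lowest signal was most often that of no fracture. Of 5457 probe sets whose signals spanned at least 2-fold, 37.7% had their highest signal without fracture, 16.3%, 12.6% and 8.45% at the callus phase times in order, and 15.1% and 9.82% at 4 and 6 weeks. The lowest signal was without fracture in 24.7%, at 3 days in 19.0% and at 4 weeks in 4.43%. Among the 25 probe sets called higher, 7 were highest at 3 days, 11 at 1 week and 7 at 2 weeks, so that 28% (95% Wilson interval 14.3 to 47.6%) had their highest signal at 2 weeks. Among the 51 called lower, 10 were lowest at 3 days, 8 at 1 week and 9 at 2 weeks, and 24 were tied at the floor. The share with the lowest signal at 1 week was 15.7% (8.17 to 28.0%). The intervals cover counting error alone, and probe sets are not independent. Among the 442 probe sets higher by at least 2-fold with no overlap, 209 were highest at 3 days, 152 at 1 week and 81 at 2 weeks. With 1 array at each time, neighbouring times in such an order cannot be set against a spread of their own.

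**Figure D4:**
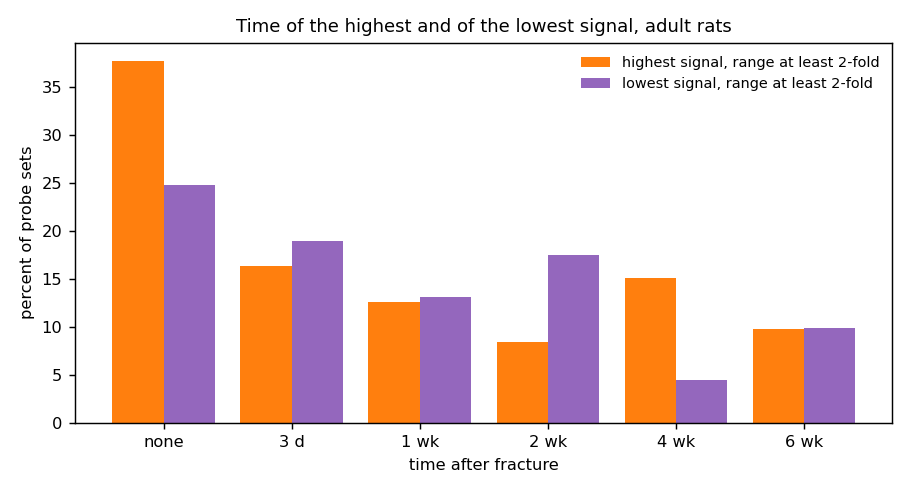
Percent of the 5457 probe sets with a range of at least 2-fold that had their highest or their lowest signal at each time after fracture in adult rats (bars from 0, 1 array per time). The no fracture array held the highest signal in 37.7% and the lowest in 24.7%, more than any other array, and 622 probe sets tied at the floor are in no lowest bar.

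To find genes that had not returned, a probe set was taken as raised when at least 2 of the 3 callus phase arrays were 2-fold above no fracture, and as lowered when at least 2 were 2-fold below it. By this rule 1255 probe sets were raised (14.4%) and 1696 were lowered (19.4%). At 6 weeks 680 of the raised, 54.2% of them and 7.78% of all probe sets, were still at least 2-fold higher, 560 were within 2-fold and 15 were 2-fold lower. Of the lowered, 811, which is 47.8% of them and 9.28% of all, were still at least 2-fold lower, 864 were within 2-fold and 21 were 2-fold higher. At 4 weeks 705 and 655 were still away. Every such change is measured against the 1 no fracture array of adult rats, the array that stood apart. At each age the 6 week rats were also 6 weeks older at collection than the no fracture rats. Time after fracture and age at collection cannot be told apart here. In older rats, against their own no fracture array, 474 of the 680 (69.7%) were also 2-fold higher at 6 weeks, beside 12.6% of all probe sets, and 305 of the 811 (37.6%) were also 2-fold lower, beside 16.6% of all. In young rats these shares were 5.44% of the 680, beside 6.98% of all, and 6.66% of the 811, beside 6.88% of all. The young 6 week array had a 3' to 5' ratio of 6.57 for Gapdh and 3.06 for actin. The adult 6 week array had 1.83 and 1.72, and the older one 1.19 and 1.31. The part of these ratios in the young shares was not tested. A limma fit over the 12 adult and older arrays, which takes the 2 ages as replicates, called 680 probe sets higher (7.78%) and 635 lower (7.27%) at 6 weeks than without fracture. With the young arrays added to the fit these 1315 calls became 77. The parts of their 3' to 5' ratios and of age at collection in this were not tested. The fit shares the adult arrays with the rule, and 455 of the 680 and 267 of the 811 were among its calls.

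Several genes of osteoclasts and matrix degradation were raised and had not returned. Ctsk, the collagen-degrading cathepsin of osteoclasts, was at 1014 without fracture, 2170, 7017 and 15249.9 at 3 days, 1 week and 2 weeks, and 14192 and 17161 at 4 and 6 weeks. At 6 weeks it was 16.9-fold above no fracture, its highest signal of the 6, and in older rats it went from 299 to 11628. The fit over both ages gave a log2 change of 4.68 (SE 0.42, adjusted p = 0.00357). Mmp13, the collagenase of hypertrophic cartilage and bone, was at 645 without fracture, 2676, 3329 and 10288 at 3 days, 1 week and 2 weeks, and 8899.8 and 9884 at 4 and 6 weeks, with 4.23 (SE 0.19, adjusted p = 0.000396) over both ages. Mmp9, the gelatinase of osteoclasts, was at 431 without fracture, 194, 3402 and 11985 at 3 days, 1 week and 2 weeks, and 5739 and 6569.8 at 4 and 6 weeks, and Acp5, the acid phosphatase of osteoclasts, at 1185 without fracture, 738, 3574 and 16956 at 3 days, 1 week and 2 weeks, and 11336 and 12628 at 4 and 6 weeks. Mmp9 and Acp5 were lower at 3 days than without fracture, and from 2 weeks on all 4 genes were far above it. Since both phases held high arrays, their callus phase differences were -0.03 for Ctsk and -0.35 for Mmp9. Of the 8 osteoclast genes, 4 were raised (14.4% of all probe sets) and all 4 had not returned (7.78% of all). Another 1 of the 8 was lowered (19.4% of all) and was no longer 2-fold lower at 6 weeks. The most negative callus phase difference of the list was -2.64. The fit over both ages called 3 of the 8 higher at 6 weeks, against 7.78% of all.

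**Figure D5:**
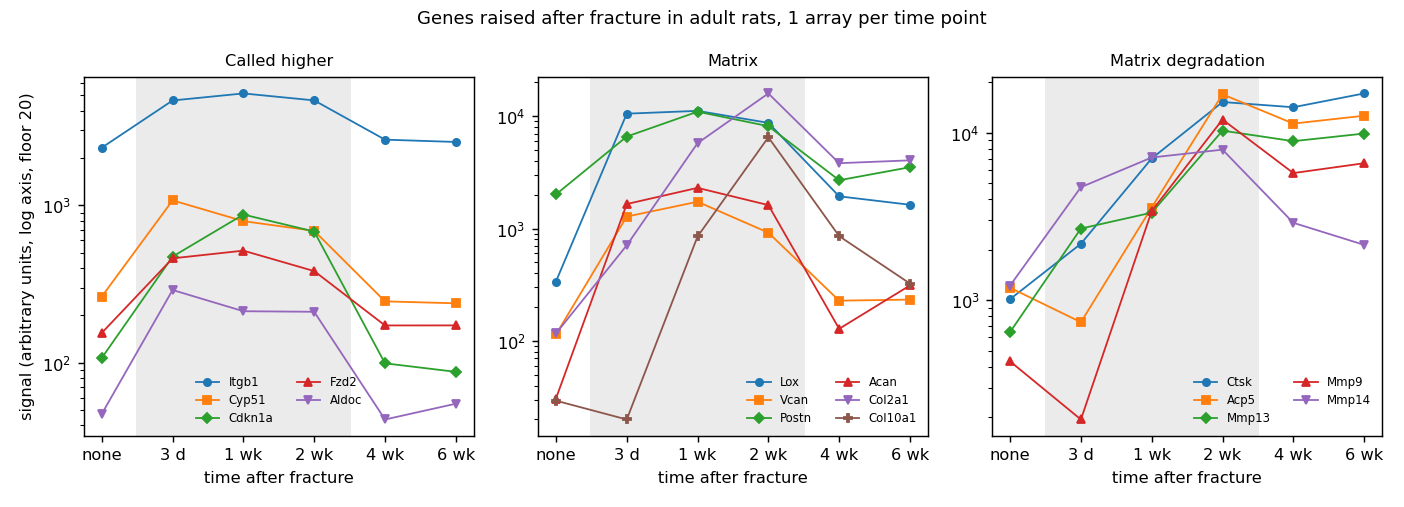
Signals of 3 groups of genes in adult rats against time after fracture (none, no fracture), on a log axis in arbitrary units with a floor of 20. Each point is 1 array and the grey band is the callus phase. The called genes shown were near no fracture at 4 and 6 weeks, which the call favours because it pools these times with no fracture. Acan, Col2a1 and Col10a1 peaked at 1 or 2 weeks and were above no fracture at 6 weeks. Ctsk, Acp5, Mmp13 and Mmp9 stayed high to 6 weeks.

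Of the 10 cartilage genes 7 were raised (14.4% of all probe sets) and 6 of these had not returned (7.78% of all), while Cnmd was at least 2-fold lower at 6 weeks than without fracture, at 20.3 against 112. Col2a1 was 34.7-fold higher at 6 weeks in adult rats, at 4045 against 117, and the change over adult and older rats was 5.01 (SE 0.40, adjusted p = 0.00270). In young rats it was at 839 without fracture and 128 at 6 weeks, in the young array with the high 3' to 5' ratios. Col10a1 was 11-fold higher, with 3.73 (SE 0.26, adjusted p = 0.00177) over both ages. The second probe set of Col2a1 lay below the floor in all 6 arrays. Of 17 fibrous matrix genes 15 were raised and 11 had not returned, and of 18 bone genes 10 were raised and 7 had not returned, against the same shares of all probe sets.

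Other genes with the largest changes that remained had low or moderate signals without fracture. Gal, the neuropeptide galanin, was at 20.9 without fracture, 202, 488 and 954 at 3 days, 1 week and 2 weeks, and 167 and 489 at 4 and 6 weeks, a 23.4-fold change at 6 weeks. Gpx7, a peroxidase of the endoplasmic reticulum, was at 35.9 without fracture, 1181, 1148 and 992 at 3 days, 1 week and 2 weeks, and 505 and 655 at 4 and 6 weeks, with 4.34 (SE 0.21, adjusted p = 0.000470) over both ages. Aebp1, a matrix protein of fibroblasts, was at 1319.9, 2695 and 1767 in the callus phase against 88.3, 821 and 1383 at the other times, and Casp2, a caspase, at 339, 477 and 483 in the callus phase against 50.4, 887 and 685 at the other times. Apobec1, a cytidine deaminase that edits apolipoprotein B RNA, had 19.5 without fracture and 503 at 6 weeks, but 186 and 541 in older rats, and the fit over both ages gave 3.09 (SE 0.85, adjusted p = 0.0615), which did not pass the test. In no fracture Apobec1 was below the floor, so its adult fold is a lower bound.

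Many members of the muscle and mitochondrial lists had not returned from below. Of 38 muscle genes 26 were lowered and 22 had not returned, and of 54 mitochondrial genes 36 were lowered and 26 had not returned. Of all probe sets 19.4% were lowered and 9.28% were lowered and had not returned. Hspb6, a small heat shock protein of muscle, was at 17356 without fracture, 314, 1244 and 3637 at 3 days, 1 week and 2 weeks, and 4489 and 3137 at 4 and 6 weeks, and the change over both ages was -1.86 (SE 0.43, adjusted p = 0.0393). Cox8b, a subunit of cytochrome oxidase in muscle and heart, was at 14553 without fracture, 309, 1346 and 2345 at 3 days, 1 week and 2 weeks, and 2681 and 2776 at 4 and 6 weeks. Mybpc1, a myosin-binding protein, was 4.61-fold lower at 6 weeks, Ppp1r1a, an inhibitor of protein phosphatase 1, was 5.66-fold lower, and Vdac1, a channel of the outer mitochondrial membrane, was 5.20-fold lower in adult rats. The fit over both ages did not call Cox8b, Mybpc1, Ppp1r1a or Vdac1 (adjusted p = 0.0778, 0.0872, 0.0571 and 0.109). It called Grhpr, a reductase of glyoxylate, at -2.10 (SE 0.38, adjusted p = 0.0206), and Pfkfb1, a regulatory enzyme of glycolysis, at -1.97 (SE 0.21, adjusted p = 0.00543).

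Nmrk2, Cacna2d1 and Gpd1 had larger changes in adult than in older rats. They were named for the size of their adult change, which favours a smaller change in older rats. The difference between the ages at 6 weeks was not tested. Nmrk2, a nicotinamide riboside kinase of muscle, went from 810.1 to 58.1 at 6 weeks in adult and from 549 to 262 in older rats. Cacna2d1, a calcium channel subunit, went from 2503 to 279 in adult and from 1102 to 1287 in older rats. Gpd1, a glycerol phosphate dehydrogenase, went from 812 to 94.3 in adult and from 393 to 476 in older rats. The fit over both ages called none of the 3. These lowered genes had their highest adult signal without fracture, as did the muscle list, and the part of muscle RNA in their values was not tested.

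The callus phase difference was compared between ages over all 18 arrays. limma called 1 probe set different between adult and young rats (0.0114%) and 1 between adult and older rats (0.0114%), with 438 and 162 at an unadjusted p under 0.05. Both calls were the same probe set of Grpr, the receptor of gastrin-releasing peptide. Its adult signals were 38.7, 13.4, 12.6, 10.3, 33.9 and 48 in order of time, of which 3 were below the floor, and 11 of the 12 signals of the other ages lay below 20. With the time point as a block 0 were called for either age. The young, adult and older rats had median differences of -2.58, -1.89 and -2.54 in the granulocyte list, 0.74, 1.15 and 1.30 in the fibrous matrix list, and 0.35, -0.21 and -0.70 in the osteoclast list. Differences of these medians between ages were not tested.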

How the data were processed

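RNA from the middle of the femur of 6 adult, 6 young and 6 older arrays was measured, with 2 rats pooled on each. The authors hybridised Affymetrix rat expression arrays, computed signals with Affymetrix Microarray Suite and scaled every array to a common average. The deposited values are linear signal intensities, and their trimmed means ran from 500.7 to 500.9. The detection calls and the depth behind a signal were not analysed here, and the number of arrays limits the precision.

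Of 8799 probe sets, 59 controls were left out. Signals below 20 were set to 20 and log2 was taken. Of the 8740 probe sets tested, 7006 have 1 gene symbol, 308 several and 1426 none in the platform annotation, and 4719 of 4741 gene identifiers were found in RefSeq (GRCr8). The brightest probe set over the adult arrays stood for a gene in the lists.

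The callus phase was compared with the other times by limma 3.58.1 (R 4.3.3) with an intensity trend on the 6 adult arrays (4 residual degrees of freedom), with Benjamini-Hochberg adjustment over all probe sets at 0.05. The difference between ages was an interaction over all 18 arrays (12 degrees of freedom), and 6 weeks was compared with no fracture over the 12 adult and older arrays with age and time as terms (5 degrees of freedom). For the callus phase and between ages, p-values measure the spread between arrays of different times, since no time had 2 arrays of 1 age. In the 6 week fit they measure how far the adult and older arrays of the same time differ beyond a constant age difference. These fits (between ages, adult against older rats alone) were tested on simulated signals. In these the spread within a phase was random rather than a course of healing. The counts, orders and gene lists were not simulated.

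Named genes had a mean signal of at least 200 and were the 10 largest called differences in each direction, up to 4 called members of each list, the 10 largest changes that had not returned in each direction, and the 3 largest called differences for each time of highest or lowest signal. Other list members and other genes were named after their values were seen. The phases, the 26 gene lists and the tests were chosen with earlier results of these data known. Alternatives were another floor, an offset of 50, quantile and median scaling, a minimum mean signal of 200, no intensity trend, all 18 arrays, the methods' t-test, other fold limits and each array left out.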

Additional observations from a re-analysis of the deposited data

Results flagged for a closer look

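The difference between callus phase and other times of 1 probe set of Grpr, the receptor of gastrin-releasing peptide, differed between ages. It was -0.99 on the log2 scale in adult minus young rats (limma adjusted p = 0.00870) and -0.98 in adult minus older rats (limma adjusted p = 0.00996). The adult signals were 13.4, 12.6 and 10.3 in the callus phase and 38.7, 33.9 and 48.0 at the other times, so all 3 callus phase signals were below the floor of 20. Of the 12 signals of young and older rats, 11 were below the floor as well. Within adult rats the difference did not pass the test (limma adjusted p = 0.0563). The gene was named after its values were seen, and neither difference was called with the time point as a block.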

How the results depend on the processing

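No paired analysis was possible because the replicate numbers of the arrays were given in accession order and the time points of the 2 phases are not pairs. Between ages the time point could be used as a block, and that fit is given with the other alternatives. The counts of calls in the callus phase moved most. Against 25 higher and 51 lower probe sets, a floor of 1 gave 64 and 126, an offset of 50 gave 64 and 127, no intensity trend 46 and 92, and all 18 arrays 64 and 92. Quantile normalization gave 41 higher, and scaling to the median 28 lower. The methods' t-test gave 494 and 1100 unadjusted and 3 and 7 after Benjamini-Hochberg adjustment. With single arrays left out the counts ranged from 5 to 11 higher and from 1 to 65 lower. Every array left out moved the higher count by over 1.5 times, and the 3 day, 1 week, 2 week and 4 week arrays did so for the lower count. Of the 25 higher calls 3 to 7 and of the 51 lower calls 1 to 29 remained.

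The share of higher probe sets with their highest signal at 2 weeks was 28%, 13.9% with a mean signal of at least 200, and 0 to 36.4% with an array left out. The share of lower probe sets with their lowest signal at 1 week was 15.7%, 33.3% with a floor of 1, 35.4% with an offset of 50, 28.8% with a mean signal of at least 200, 29.3% with all 18 arrays, and 0 to 27.3% with an array left out. The 1 call between adult and young rats became 0 with a floor of 1, an offset of 50, a minimum mean of 200, arrays scaled to their medians, only 12 arrays or the time point as a block, and 1 to 13 with the arrays of 1 time left out. The 1 call between adult and older rats became 0 under quantile normalization, when arrays were scaled to their medians, with an offset of 50, a minimum mean of 200, only 12 arrays or the time point as a block, and 0 to 6 with the arrays of 1 time left out.

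The 1315 calls at 6 weeks became 77 with all 18 arrays. The 680 raised probe sets that had not returned became 211 at a limit of 4-fold, and the 811 lowered ones became 406 with an offset of 50, 316 with a mean signal of at least 200, 1220 at a limit of 1.5-fold and 140 at 4-fold. No direction of a single gene or list reversed in the alternatives run. With median scaling or quantile normalization, however, more probe sets were called higher than lower. Of 563 values of single genes in the callus phase, 379 kept their side of the threshold, 144 lost the call and 40 gained one. The causes were not tested.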

Other observations

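At 2 weeks the young array differed from the adult array in further lists, each time as 1 array against 1 and without a test. Of 31 cell cycle genes, 14 were at least 2-fold higher in young than in adult rats, and 0 were so in older rats. Of 13 mast cell genes 8, of 11 granulocyte genes 4 and of 3 B lymphocyte genes 2 were at least 2-fold higher in young rats, against 7.24% of all probe sets. Of 38 skeletal muscle genes 9 were at least 2-fold lower in young than in adult rats at this time, against 327 of 8740 probe sets.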
